A study of Mus musculus with 15 samples.

Results

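Transcripts of Krt8 (ENSMUSG00000049382), Krt18 (ENSMUSG00000023043), Krt23 (ENSMUSG00000006777), Afp (ENSMUSG00000054932), Ly6d (ENSMUSG00000034634), Anxa2 (ENSMUSG00000032231), Anxa5 (ENSMUSG00000027712), Cd24a (ENSMUSG00000047139) and Sox9 (ENSMUSG00000000567) are followed as signs of hepatocyte injury or of a return of fetal liver expression, and these 9 genes were described in the livers of mice kept on 3 diets. They were chosen by name, with earlier results of these data known, and each of the 9 symbols matched 1 of the 56980 gene IDs in the deposited count table. All 9 were among the 14627 genes that passed the filter on low counts. RNA was taken from whole liver of male wild-type c57bl6j mice, 15 weeks old when the diets began and fed them for 9 months. The control diet held 10% fat (4 libraries, replicates 2 to 5), the high-fat diet 60% fat (HFD, 5 libraries) and the ketogenic diet 89.9% fat (5 libraries). The diet labels also carry the suffix ALF, which the sources used here do not explain. A further control library, replicate 1, was reported by the submitters to be contaminated and was left out. The labels number the libraries without saying that every mouse gave only 1, so the p-values speak of the spread among libraries, which may be partly technical.

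Hepatocytes build their intermediate filaments from a single keratin pair, the type II keratin Krt8 and the type I keratin Krt18, and stressed hepatocytes are known to raise both. Annexins are proteins that bind membrane phospholipids in the presence of calcium. Afp is the fetal relative of albumin and is silenced in the liver after birth, while Sox9 is a transcription factor of bile duct cells that hepatocytes can switch on during injury. Because whole tissue was sequenced, a larger number of cells of a type and more RNA per cell cannot be told apart.

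The 14 libraries held 16329425 to 25349148 counted reads. On the first principal component of all genes, which carried 36.7% of the variance, the controls lay between -41.1 and -35.7. HFD replicate 1 lay at -13.0, apart from the other HFD libraries at 14.6 to 28.9. Ketogenic replicate 5 lay at 52.8, and at 27.3 on the second component, where the other ketogenic libraries lay between -42.1 and -15.6. These libraries are called the HFD and ketogenic libraries that stand apart, and the fits were repeated without this pair, a choice made after the data were seen. HFD replicate 1 was the HFD library nearest the controls on the first component. It was also the lowest HFD library for every gene described but Cd24a. Ketogenic replicate 5 was the highest of its diet for all but Krt8 and Krt18. For those genes leaving the pair out by itself raises the HFD values and lowers the ketogenic ones, so these refits describe and do not test. Summed hepatocyte markers (12 genes) reached 138065 to 178966 CPM (reads per library scaled to a common total) in the controls, 98692 to 134457 under HFD and 76150 to 133002 under the ketogenic diet (101128 to 133002 without ketogenic replicate 5), and none of the 12 was at 0. Alb, named for its share, made up most of the sum, with a control mean of 105787 CPM. In edgeR's quasi-likelihood test its adjusted p was 0.189 under HFD and 0.116 under the ketogenic diet. At an adjusted p under 0.05, 1 of the 12 was lower under HFD, the urea cycle enzyme Cps1. Under the ketogenic diet 3 were lower, among them Cps1 and Ass1, and none was higher on either diet. Of all genes tested, 5.01% and 4.60% were lower.

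Against the control diet, 6 of the 9 genes rose under HFD (Krt8, Krt18, Krt23, Ly6d, Anxa2 and Anxa5) and none fell. Under the ketogenic diet 5 rose (the same genes without Ly6d), and none fell. The comparisons share their 4 control libraries. Of all genes tested, 6.95% were called higher and 5.01% lower under HFD, and 7.47% higher and 4.60% lower under the ketogenic diet, at an adjusted p under 0.05 in edgeR's quasi-likelihood test. For 5 of the 9 genes every HFD library lay above every control, against 9.45% of all genes tested. The same held for 5 of the 9 under the ketogenic diet, against 7.38% of all genes. The median log2 fold change of the 9 genes was 1.26 under HFD and 1.21 under the ketogenic diet, beside 0.0075 and 0.031 over all genes tested. Because the 9 genes were chosen with earlier results of these data known, the values over all genes describe the background and are not a test of the set.

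**Figure D1:**
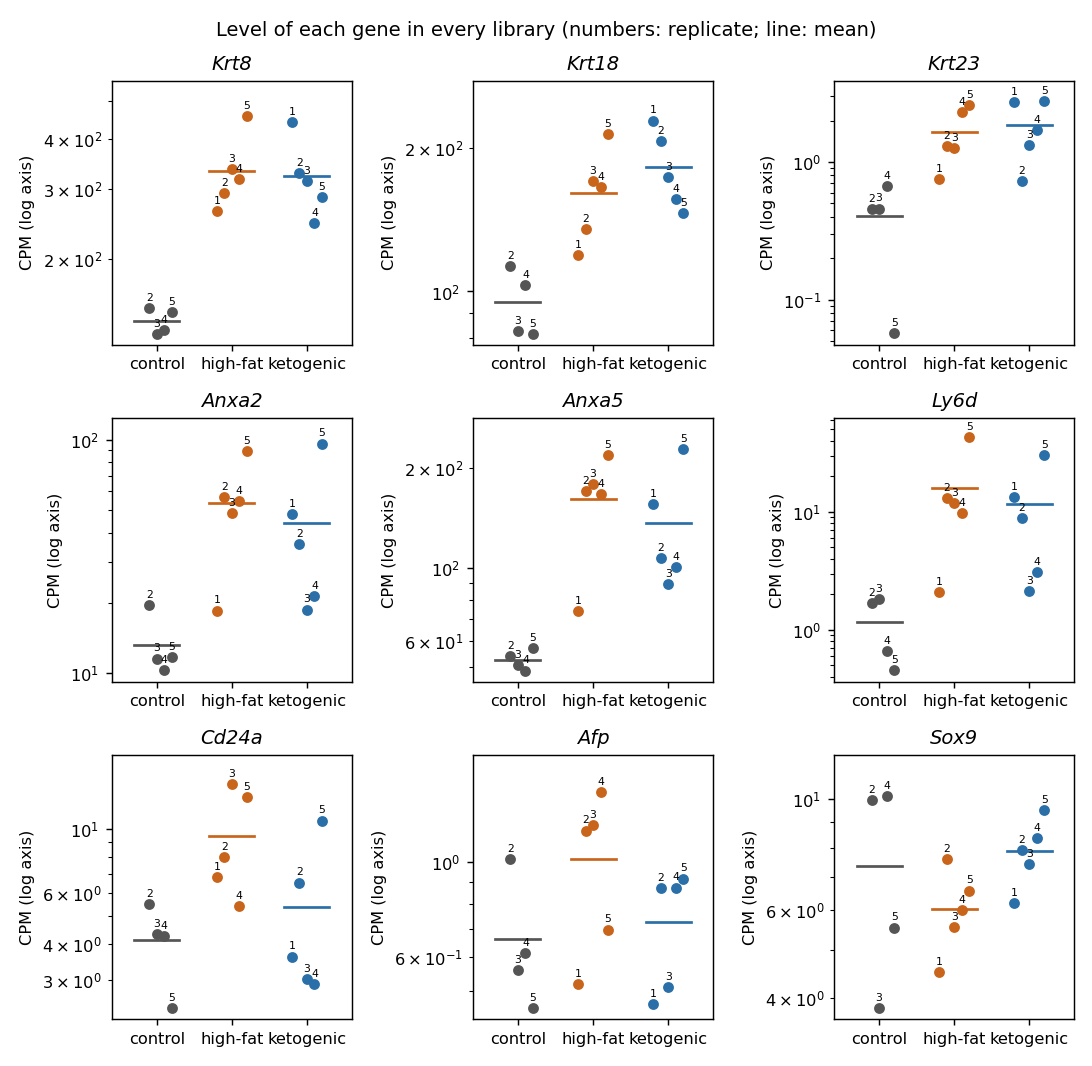
Level of each of the 9 genes in every library, in CPM on a log axis that differs between panels, for the control, high-fat and ketogenic diets. Points are libraries with their replicate number, and lines are diet means. Krt8, Krt18, Krt23, Ly6d and Anxa5 show no overlap between the controls and either fat-rich diet, while Afp and Sox9 overlap throughout.

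Krt8 rose on both fat-rich diets. Its level in the control libraries, replicates 2 to 5, was 149.9, 129, 132 and 146 CPM. In HFD replicates 1 to 5 it was 263, 293, 336, 318 and 458 CPM, and in ketogenic replicates 1 to 5 it was 441, 329, 314, 246 and 286 CPM. The lowest library on either fat-rich diet lay well above the highest control. The mean rose from 139 ± 10.4 CPM (SD, n = 4) to 333 ± 74.7 CPM under HFD (SD, n = 5) and 323 ± 73.0 CPM under the ketogenic diet (SD, n = 5). The log2 fold change was 1.26 ± 0.18 (SE, adjusted p = 0.000457) under HFD and 1.21 ± 0.18 (adjusted p = 0.000388) under the ketogenic diet. Both calls were kept with any 1 of the 14 libraries left out, and without the pair that stands apart the values were 1.34 (adjusted p = 0.000126) and 1.26 (adjusted p = 0.000183). A near-identical copy, Krt8-ps, held 3 to 24 reads in a library, where Krt8 held 2538 to 10390.

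Krt18, the filament partner of Krt8, rose by less. It was at 113, 82.7, 103 and 81.5 CPM in the controls, at 119, 135, 170.3, 165 and 214 CPM in HFD replicates 1 to 5, and at 228, 206, 173, 156 and 146 CPM in ketogenic replicates 1 to 5. The groups did not overlap, but HFD replicate 1 came close to control replicate 2. In edgeR's test the log2 fold change was 0.76 ± 0.18 (adjusted p = 0.0127) under HFD and 0.93 ± 0.18 (adjusted p = 0.00308) under the ketogenic diet. The HFD call was lost without control replicate 3 or control replicate 5, where the adjusted p reached at most 0.0510, and the ketogenic call was kept without any 1 library. Without the pair of libraries that stand apart the values were 0.85 (adjusted p = 0.00205) and 1.0 (adjusted p = 0.000714).

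Since filaments contain equal parts of both keratins, the reads of Krt8 per read of Krt18 were compared within each library. This comparison was chosen after the values were seen, and the ratio is not corrected for transcript length. The ratio was 1.33, 1.56, 1.27 and 1.80 in the controls, 2.20, 2.16, 1.97, 1.92 and 2.14 in HFD replicates 1 to 5, and 1.94, 1.6, 1.81, 1.58 and 1.96 in ketogenic replicates 1 to 5. Every HFD library lay above every control, and the ketogenic libraries overlapped both other diets. The mean ratio was 1.49 ± 0.239 in controls, 2.08 ± 0.126 under HFD and 1.78 ± 0.181 under the ketogenic diet (SD). The difference of HFD from control was 0.49 on the log2 scale, with p = 0.0159 in a two-sided exact permutation test, the smallest it can give, and 0.0357 adjusted over 3 comparisons. The ketogenic libraries lay below HFD, by -0.23 (exact permutation p = 0.0238, adjusted 0.0357). Between ketogenic and control the difference was 0.26 (exact permutation p = 0.0635, adjusted 0.0635). Without control replicate 5, the control with the highest ratio, it was 0.36, and leaving that library out by itself widens the difference. It was the only control above any ketogenic library. The exact permutation p of 0.0357 without it, unadjusted and the smallest possible with those libraries, therefore followed from the choice and is not a test.

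**Figure D2:**
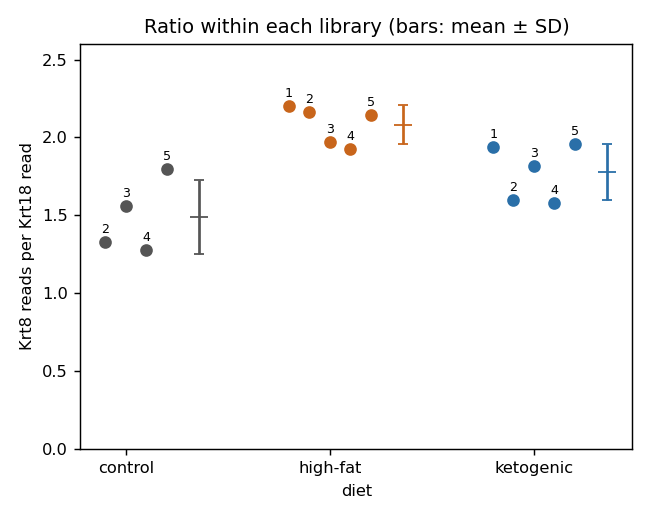
Reads of Krt8 per read of Krt18 in each library of the 3 diets, with replicate numbers and, beside each group, the mean and SD. The 5 HFD libraries lie between 1.92 and 2.20, above all 4 controls, and the ketogenic libraries lie between 1.58 and 1.96.

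Krt23 is a type I keratin that is scarce in healthy liver, and its reads were few, from 1 to 76 in a library. It was at 0.452, 0.458, 0.666 and 0.0571 CPM in the controls. In HFD replicates 1 to 5 it was at 0.751, 1.30, 1.27, 2.31 and 2.59 CPM, and in ketogenic replicates 1 to 5 at 2.72, 0.725, 1.33, 1.70 and 2.78 CPM. The lowest libraries on the fat-rich diets were only just above the highest control. On the log2 scale the change was 1.99 ± 0.54 (adjusted p = 0.0253) under HFD and 2.16 ± 0.54 (adjusted p = 0.0154) under the ketogenic diet. With 1 library left out in turn, the HFD call was kept in 10 of 14 fits (adjusted p 0.0142 to 0.0639), lost without control replicate 3 or 5 or HFD replicate 4 or 5, and the ketogenic call was kept in 14 of 14. Without the pair that stands apart the values were 2.17 (adjusted p = 0.00690) and 1.96 (adjusted p = 0.0181). Among 9 other keratins listed, 4 passed the filter, and none of the 4 was called on either diet. They include the bile duct keratin Krt19, at 4.02 ± 2.96 CPM in controls, 3.29 ± 2.22 CPM under HFD and 2.68 ± 1.29 CPM under the ketogenic diet.

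Anxa5, which binds phosphatidylserine exposed on membranes, was above every control in all 10 libraries of the fat-rich diets. Its level was 54.1, 50.8, 48.9 and 57.2 CPM in the controls, 74.0, 170.3, 179, 167 and 218 CPM in HFD replicates 1 to 5, and 156, 107, 89.3, 101 and 227 CPM in ketogenic replicates 1 to 5. The controls were tightly grouped, and the library of each fat-rich diet that stands apart was at an end of its group, HFD replicate 1 lowest and ketogenic replicate 5 highest. The fitted log2 fold change was 1.62 ± 0.30 (adjusted p = 0.00319) under HFD and 1.37 ± 0.30 (adjusted p = 0.00773) under the ketogenic diet. Without the pair of libraries that stand apart these were 1.80 (adjusted p = 5.92e-06) and 1.10 (adjusted p = 0.000212). Leaving out the lowest HFD and the highest ketogenic library by itself moves the values in these directions. Both calls were kept with any 1 library left out.

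Anxa2, which forms a complex with S100a10 at the plasma membrane, was at 19.5, 11.5, 10.2 and 11.7 CPM in the controls. It was at 18.5, 56.7, 48.4, 54.6 and 89.5 CPM in HFD replicates 1 to 5 and at 48.1, 35.6, 18.7, 21.3 and 96.3 CPM in ketogenic replicates 1 to 5. Control replicate 2 was higher than the lowest library on each fat-rich diet, so the groups overlapped. That control also held the highest summed pancreatic acinar and duct markers among the controls, 2016 CPM against a control median of 137.5 CPM, and neutrophil markers of 149.6 CPM against a median of 5.03 CPM; their part in the result was not tested. The log2 fold change of Anxa2 was 2.02 ± 0.52 (adjusted p = 0.0242) under HFD and 1.74 ± 0.51 (adjusted p = 0.0441) under the ketogenic diet. The HFD call was kept in 10 of 14 fits with 1 library left out (adjusted p 0.00772 to 0.0808) and lost without control replicate 3, 4 or 5 or HFD replicate 5. The ketogenic call was kept in 5 of 14 (adjusted p 0.0236 to 0.121), those without control replicate 2, HFD replicate 1 or 5 or ketogenic replicate 3 or 4. Without ketogenic replicate 5 the ketogenic value was 1.21 (adjusted p = 0.0946), and without the pair of libraries that stand apart 1.23 (adjusted p = 0.0220), beside 2.24 (adjusted p = 0.00049) under HFD. Its partner S100a10 went from 22.9 ± 8.70 CPM in controls to 95.6 ± 36.6 CPM under HFD and 79.6 ± 14.1 CPM under the ketogenic diet, with log2 fold changes of 2.06 ± 0.29 (adjusted p = 0.000504) and 1.80 ± 0.29 (adjusted p = 0.000821). Of 10 other annexins listed, 9 passed the filter and only Anxa4 rose, by 0.39 ± 0.10 (adjusted p = 0.0221) under HFD and 0.36 ± 0.10 (adjusted p = 0.0315) under the ketogenic diet on the log2 scale. With the pair that stands apart left out, 3 of the 9 rose under HFD (Anxa1, Anxa3 and Anxa4, the former 2 named after their values were seen) and 0 were called under the ketogenic diet.

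Ly6d, a surface protein held by a lipid anchor and known best from lymphoid precursors and squamous epithelium, had the highest fold change of the 9 genes and the widest spread between libraries within both fat-rich diets. It was at 1.70, 1.83, 0.666 and 0.457 CPM in the controls, 2.08, 13.1, 11.8, 9.72 and 43.1 CPM in HFD replicates 1 to 5, and 13.2, 8.89, 2.15, 3.08 and 30.4 CPM in ketogenic replicates 1 to 5. No library on a fat-rich diet fell within the control range, although HFD replicate 1 and ketogenic replicate 3 came close to it. The highest library was 20.7 times the lowest within HFD and 14.2 times within the ketogenic diet, where for Krt8 these ratios were 1.74 and 1.79. The log2 fold change was 3.77 ± 1.02 (adjusted p = 0.0324) under HFD and 3.31 ± 1.01 (adjusted p = 0.0519) under the ketogenic diet, so only the HFD value passed the threshold. The difference between these diets is given with their own comparison. The HFD call was kept in 7 of 14 fits with 1 library left out (adjusted p 0.0146 to 0.0988) and lost without any 1 of the controls or HFD replicate 2, 3 or 5. The ketogenic call was made in 4 of 14 (adjusted p 0.0286 to 0.137), those without HFD replicate 1 or 5 or ketogenic replicate 3 or 4. Without the pair of libraries that stand apart the values were 4.05 (adjusted p = 0.00558) and 2.55 (adjusted p = 0.0617). Of 9 tested markers of B cells, a lineage whose precursors carry Ly6d, 0 were called in either comparison. Their summed level was 19.8 to 28.1 CPM in controls, 12.7 to 25.6 CPM under HFD and 8.07 to 46.4 CPM under the ketogenic diet, with the highest value in ketogenic replicate 5, without which the ketogenic range ended at 17.0 CPM. When that pair of libraries was left out, 8 of these markers were tested, and 1, Jchain, named after its value was seen, was lower under the ketogenic diet. Among 11 other genes of the Ly6 family, 4 passed the filter, and Ly6a was the gene that rose, by 0.66 ± 0.19 (adjusted p = 0.0371) and 0.96 ± 0.20 (adjusted p = 0.00465) on the log2 scale.

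**Figure D3:**
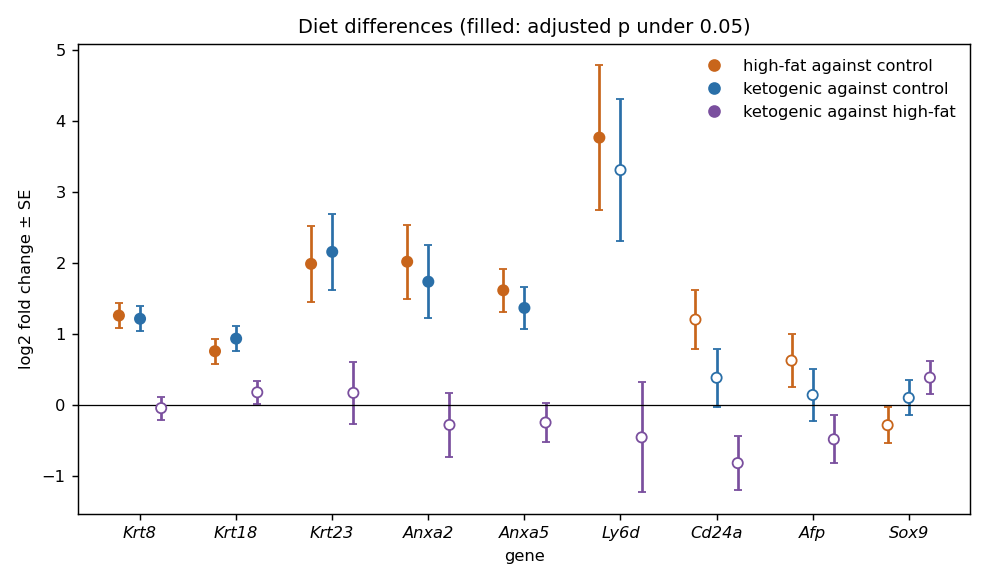
Log2 fold change and SE of the 9 genes for high-fat against control, ketogenic against control and ketogenic against high-fat. Filled points have an adjusted p under 0.05: 6 genes under high-fat and 5 under the ketogenic diet, and none between those diets.

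Cd24a, a small glycoprotein of progenitor, biliary and blood cells, did not pass the threshold on either diet. It was at 5.49, 4.33, 4.25 and 2.40 CPM in the controls, 6.82, 8.0, 14.3, 5.38 and 12.9 CPM in HFD replicates 1 to 5, and 3.61, 6.52, 3.01, 2.89 and 10.7 CPM in ketogenic replicates 1 to 5. All HFD libraries but replicate 4 lay above the controls, while 3 ketogenic libraries lay within the control range. In edgeR's test the log2 fold change was 1.20 ± 0.41 (adjusted p = 0.0713) under HFD and 0.38 ± 0.41 (adjusted p = 0.574) under the ketogenic diet. The HFD value passed the threshold in DESeq2, in the fit on the 2 diets alone, without ketogenic replicate 5, and without the pair of libraries that stand apart.

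Afp was scarce in every library, with 8 to 36 reads. It ranged from 0.457 to 1.02 CPM in controls, from 0.520 to 1.46 CPM under HFD and from 0.467 to 0.915 CPM under the ketogenic diet. The 3 ranges overlapped. On the log2 scale the change was 0.62 ± 0.37 (adjusted p = 0.293) under HFD and 0.14 ± 0.37 (adjusted p = 0.841) under the ketogenic diet, so no difference was detectable at this depth. Without the pair that stands apart the values were 0.79 (adjusted p = 0.122) and 0.04 (adjusted p = 0.961). Of 14 other oncofetal and fetal liver genes listed, 7 passed the filter. Igf2bp2, an RNA-binding protein of fetal tissue, rose under HFD from 1.57 ± 0.453 to 4.66 ± 1.65 CPM. Its log2 difference in edgeR's test was 1.56 ± 0.45 (adjusted p = 0.0336) under HFD and 0.83 ± 0.44 (adjusted p = 0.238) under the ketogenic diet. None of the 7 was called under the ketogenic diet or between the fat-rich diets. Their median log2 fold change was 0.18 under HFD and 0.78 under the ketogenic diet. With the pair that stands apart left out, Igf2bp2 was again called higher and Afm lower under HFD, and Peg3 higher under the ketogenic diet, the last 2 named after their values were seen. Afm was abundant in these adult controls, at 273 ± 26.7 CPM, and is also on the list of albumin relatives, so its fall does not speak of fetal expression. Of 12 genes listed as Afp regulators or albumin relatives, Zbtb20, a repressor of Afp, fell by 0.56 ± 0.17 on the log2 scale under HFD (adjusted p = 0.0445). Under the ketogenic diet Cebpa, a hepatocyte transcription factor, fell by 0.38 ± 0.12 (adjusted p = 0.0438), and no other gene of that list was called on either diet. Cebpa was at -0.25 ± 0.12 under HFD (adjusted p = 0.183), where every library lay below every control. Zbtb20 was at -0.11 ± 0.17 under the ketogenic diet (adjusted p = 0.716). Between the fat-rich diets 0 of the 12 were called. When that pair of libraries was left out, 3 of the 12 fell under HFD (Zbtb20, Hnf4a and Afm), and none was called under the ketogenic diet.

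Sox9 did not differ between diets beyond its spread. It ranged from 3.82 to 10.1 CPM in controls, from 4.51 to 7.58 CPM under HFD and from 6.20 to 9.52 CPM under the ketogenic diet. The control range held every library of both other diets. The fitted log2 fold change was -0.29 ± 0.25 (adjusted p = 0.491) under HFD and 0.10 ± 0.25 (adjusted p = 0.83) under the ketogenic diet. Without the pair that stands apart the values were -0.20 (adjusted p = 0.622) and 0.02 (adjusted p = 0.971). Markers of bile duct cells, which normally carry Sox9 and Cd24a, gave 0 of 16 tested genes higher on either diet and 1 lower, Aqp1, by 0.52 ± 0.14 on the log2 scale under the ketogenic diet (adjusted p = 0.0198). Their summed level was 205 to 251 CPM in controls, 228 to 246 CPM under HFD and 162 to 374 CPM under the ketogenic diet, again with the highest value in ketogenic replicate 5, without which the ketogenic range ended at 220.4 CPM. With the pair that stands apart left out, Spp1, named after its value was seen, was higher and Aqp1 lower under HFD, and Aqp1 and Slc5a1 were lower under the ketogenic diet. Of 10 tested genes of Notch signalling and Sox factors, Sox4 rose on both diets, by 1.20 ± 0.38 (adjusted p = 0.0487) and 1.29 ± 0.37 (adjusted p = 0.0354). The Notch ligand Jag1 rose under the ketogenic diet, by 0.84 ± 0.20 (adjusted p = 0.0125), and was at 0.56 ± 0.20 under HFD (adjusted p = 0.0790). Between the fat-rich diets 0 of the 10 were called. When that pair of libraries was left out, 3 of the 10 rose under HFD (Sox4, Jag1 and Heyl) and 2 under the ketogenic diet (Sox4 and Jag1).

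Other genes of hepatocyte injury and regeneration were taken from a list of 18, all of which passed the filter. This list too was chosen with earlier results of these data known, so its counts are a description. Under HFD 7 of the 18 rose and none fell, with a median log2 fold change of 1.44; under the ketogenic diet 5 rose and none fell, with a median of 1.34. Without the pair of libraries that stand apart 15 of the 18 rose under HFD, while 4 rose and 2 fell under the ketogenic diet. In that setting 4 of the 18 were lower under the ketogenic diet than under HFD, named after their values were seen: Spp1, Vim, Mmd2 and Cd44. The pair left out held the lowest HFD sum of this list, 278 CPM, and the highest ketogenic sum, 790 CPM. Leaving it out by itself moves the sums in that direction. Tubb6, a tubulin, went from 4.06 ± 1.24 CPM to 12.9 ± 2.39 CPM under HFD (log2 fold change 1.67 ± 0.21, adjusted p = 0.000183) and 10.4 ± 2.0 CPM under the ketogenic diet (1.37 ± 0.21, adjusted p = 0.000496). The other genes that rose on both diets, named after their values were seen, were S100a10, S100a11, the stress cytokine Gdf15 and the siderophore-binding protein Lcn2. Without the pair that stands apart Lcn2 was no longer called under the ketogenic diet. Gdf15 rose by 2.87 ± 0.51 under HFD (adjusted p = 0.00302) and 2.39 ± 0.50 under the ketogenic diet (adjusted p = 0.00749). Of 17 targets and partners of YAP, a regulator of growth and regeneration that acts through TEAD factors, none rose under HFD and Nuak2 fell by 1.06 ± 0.26 (adjusted p = 0.0145). Under the ketogenic diet 3 rose: Ccn1 by 1.17 ± 0.20 (adjusted p = 0.00116), Tead1 by 1.09 ± 0.30 (adjusted p = 0.0277) and Ankrd1, named after its value was seen, by 2.44 ± 0.75 (adjusted p = 0.0462). Whether these differ between the diets was tested in the same fit, and 0 of the 17 were called. With the pair that stands apart left out, 5 of the 17 rose and 2 fell under HFD, 3 rose under the ketogenic diet, and 1, Nuak2, was higher under the ketogenic diet than under HFD.

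Several of the 9 genes are also expressed by cells other than hepatocytes, and markers of some such cells rose on the fat-rich diets while those of others did not. Of 14 markers of stellate cells and fibroblasts, 7 rose under HFD and 6 under the ketogenic diet. Their summed level was 378 to 418 CPM in controls, 534 to 721 CPM under HFD and 457 to 955 CPM under the ketogenic diet, or 457 to 614 CPM without ketogenic replicate 5. Of 11 markers of lipid-associated macrophages, 3 rose under HFD and 5 under the ketogenic diet, with sums of 135 to 214 CPM, 251 to 385 CPM and 151 to 1067 CPM. Without ketogenic replicate 5 the ketogenic sums ran from 151 to 276 CPM. In both lists ketogenic replicate 5 was the highest of all libraries, and it held the highest level of its diet for 7 of the 9 genes described, all but Krt8 and Krt18. When that pair of libraries was left out, 10 stellate cell and 10 macrophage markers rose under HFD, and 4 and 4 under the ketogenic diet. No gene of either list was at 0 in every library of a diet. Of 10 sinusoidal endothelial markers 0 rose and 2 fell on each diet. Of 10 resident Kupffer cell markers 0 rose on either diet, while 1 fell under HFD and 2 under the ketogenic diet. Without that pair, 1 endothelial and 2 Kupffer cell markers rose under HFD and 2 of each list fell. Under the ketogenic diet 0 of either rose and 2 of each fell. The part of any of these cells in the levels of Anxa2, Anxa5, Ly6d and Cd24a was not tested.

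The ketogenic and HFD libraries were then compared with each other, and 0 of the 9 genes were called, against 0.0615% of all genes tested. At an unadjusted p under 0.05 there was 1 of the 9, beside 8.70% of all genes. It was Cd24a, at -0.82 ± 0.38 on the log2 scale (adjusted p = 0.555), and DESeq2 also called none of the 9. The other 8 differences ran from -0.49 for Afp to 0.38 for Sox9, and for Ly6d the difference was -0.46 ± 0.78. Without the pair of libraries that stand apart Anxa5 was lower under the ketogenic diet by 0.70 on the log2 scale (adjusted p = 0.0199) and Cd24a by 1.34 (adjusted p = 0.0419), where 358 of the 14369 genes tested were called lower. For Anxa5 this pair was the lowest HFD library and the highest ketogenic one, so leaving it out by itself widens the difference. With all libraries that difference was -0.25 (adjusted p = 0.893). For Cd24a ketogenic replicate 5 was also the highest of its diet. Without that pair 7 of the 9 genes were called higher under HFD than control, beside 1870 of the 14369 genes tested, and 5 under the ketogenic diet, beside 1199 of 14369.

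**Figure D4:**
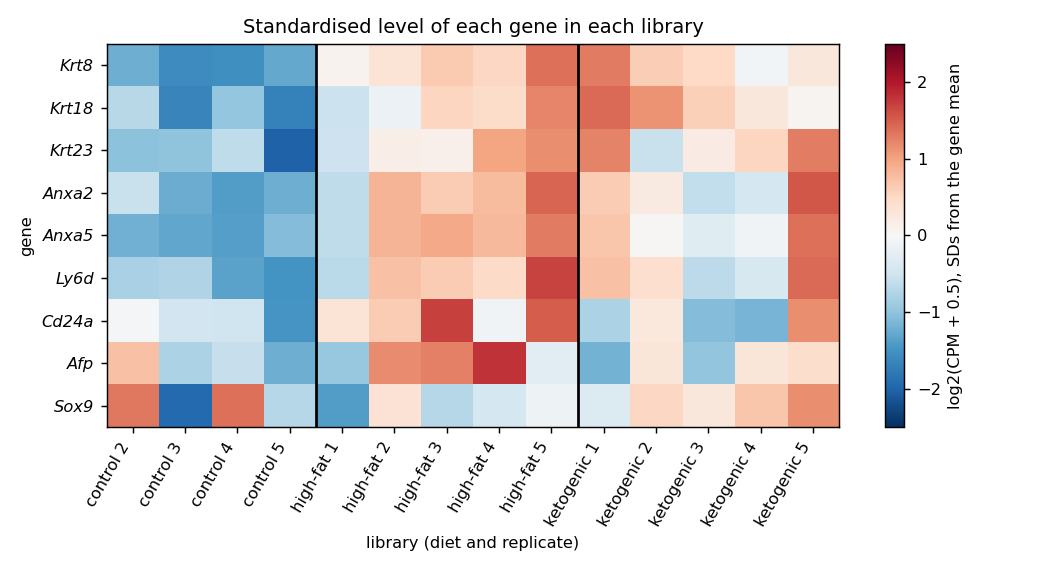
Level of each gene in each library as SDs of log2(CPM + 0.5) from the gene's mean over the 14 libraries, with diets separated by black lines. Among the 10 libraries on fat-rich diets, high-fat replicate 5 is among the 2 highest for 6 of the 9 genes and high-fat replicate 1 among the 2 lowest for 7.

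Within the fat-rich diets the genes fell into patterns that the heat map of standardised levels shows. HFD replicate 5 was among the 2 highest of the 10 libraries for Krt8, Krt18, Ly6d, Anxa2, Anxa5 and Cd24a. Ketogenic replicate 5 was among the 2 highest for Krt23, Ly6d, Anxa2, Anxa5 and Sox9, but not for Krt8 or Krt18. For those keratins ketogenic replicate 1 was among the 2 highest. HFD replicate 1 was among the 2 lowest for 7 genes and ketogenic replicate 3 for 5, including Ly6d, Anxa2 and Anxa5.

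The genes whose levels followed each member most closely over the 14 libraries were taken by Pearson correlation of log2(CPM + 0.5), as a description. The libraries share the 3 diets, so a difference from the controls raises these values. Ly6d and Anxa2 followed each other most closely (r = 0.976), and Anxa5 was second for Anxa2 (r = 0.968). Among the 3 genes closest to Krt8 were Nqo1 (r = 0.965) and Mgst3 (r = 0.962), and Krt18 was closest to Mvp (r = 0.946). Krt8 and Krt18 were thus not among each other's 3 closest genes. Krt23 was closest to Prune1 (r = 0.914) and Gsta1 (r = 0.913), Anxa5 to Mab21l3 (r = 0.980), Cd24a to Clec4n (r = 0.925), Sox9 to Cars2 (r = 0.898) and Afp to Pde5a (r = 0.83).

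The sequences before the transcription start of the keratin pair and of Anxa2 are shown because these genes rose on both diets while differing in spread. RefSeq promoters on build GRCm38.p6 were matched for 6 of the 9 genes, and the 250 bases before each start were used. The windows are chr15:102004343-102004592 on the minus strand for Krt8, chr15:102027966-102028215 on the plus strand for Krt18 and chr9:69453433-69453682 on the plus strand for Anxa2. Each is given 5′ to 3′, with capitals marking matches to a motif searched.
Krt8: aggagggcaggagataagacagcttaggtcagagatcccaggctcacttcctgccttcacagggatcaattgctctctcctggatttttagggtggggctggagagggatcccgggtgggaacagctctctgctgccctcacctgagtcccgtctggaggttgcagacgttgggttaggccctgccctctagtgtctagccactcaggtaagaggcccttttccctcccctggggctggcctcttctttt
Krt18: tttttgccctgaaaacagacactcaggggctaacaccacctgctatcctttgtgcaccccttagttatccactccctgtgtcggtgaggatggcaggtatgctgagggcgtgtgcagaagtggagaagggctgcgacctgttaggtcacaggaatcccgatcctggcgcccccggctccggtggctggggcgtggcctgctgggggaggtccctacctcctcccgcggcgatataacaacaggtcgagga
Anxa2: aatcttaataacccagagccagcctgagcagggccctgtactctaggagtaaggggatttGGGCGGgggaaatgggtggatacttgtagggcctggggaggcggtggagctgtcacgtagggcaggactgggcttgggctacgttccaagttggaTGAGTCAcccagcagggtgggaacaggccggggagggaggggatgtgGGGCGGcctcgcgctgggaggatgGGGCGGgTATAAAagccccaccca

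Matches to 5 motifs were searched on both strands of 32851 promoter windows of this length. The AP-1 motif, searched as TGANTCA, was in 6.75% of all windows. The GC box, with the letters GGGCGG, was found in 32.7% of windows. For the TATA box the letters were TATAAA, which 12.4% of windows held. A motif of TEAD factors, searched as GGAATG, was in 12.6% of windows. The antioxidant response element, searched as TGACNNNGC, was in 10.2% and can share bases with the AP-1 motif. In the Anxa2 window the AP-1 match began 95 bases before the start, and GC boxes began 190, 48 and 24 bases before it. The letters TATAAA began 17 bases before it, and none of these matches overlapped another. The Afp window held the letters TATAAA at 7 bases. Whether these letters lie where a TATA box works was not judged. None of the 5 motifs matched in the windows of Krt8, Krt18, Krt23 or Anxa5. The matches are a description of the letters and not of binding.

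**Figure D5:**
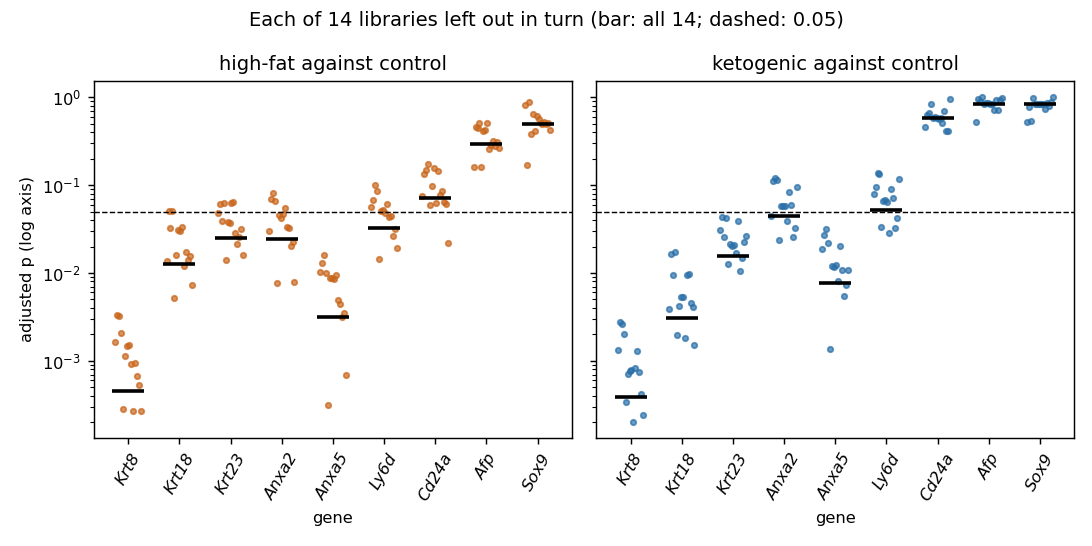
Adjusted p of each gene on a log axis with each of the 14 libraries left out in turn (points) and with all 14 (bars), for high-fat and ketogenic against control. Krt8 and Anxa5 stay under the dashed line at 0.05 in every fit of both comparisons, and Ly6d and Anxa2 cross it.

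Leaving out libraries separated the genes that rose, as the plot of adjusted p-values shows. Krt8 and Anxa5 were called in 14 of 14 fits in both comparisons with control. Under HFD only those 2 were called without control replicate 3 or without control replicate 5, 3 of the 9 were called without HFD replicate 5, and 4 without control replicate 4. The share of all genes called higher under HFD in those fits was 4.42%, 4.45%, 5.15% and 3.97%, in the order given. Library numbers in the labels fall into a set up to 9 and a set from 13, with 1 control in the former. In the set from 13, with 3 libraries per diet, the difference of mean log2 CPM from control under HFD and the ketogenic diet was 1.43 and 1.05 for Krt8, 1.03 and 0.83 for Krt18, 1.54 and 1.47 for Krt23, 1.83 and 1.27 for Anxa5, 2.42 and 1.56 for Anxa2, and 3.68 and 2.27 for Ly6d. In the set up to 9 the same differences were 0.89 and 1.34 for Krt8, 0.17 and 0.93 for Krt18, 0.66 and 1.06 for Krt23, 1.05 and 1.25 for Anxa5, 0.72 and 1.07 for Anxa2, and 1.43 and 2.37 for Ly6d. Of the genes that were not called, Afp and Sox9 differed in sign or were near 0 between the sets: under HFD and the ketogenic diet Afp was at -0.21 and -0.40 in the set up to 9 and 0.61 and 0.27 in the set from 13, and Sox9 at -0.72 and -0.48 in the former and -0.00031 and 0.45 in the latter. Cd24a was at 0.40 and -0.16 in the former and 1.38 and 0.34 in the latter. The labels do not say what the sets are.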

How the data were processed

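Gene counts were deposited by the authors as whole reads per Ensembl gene ID. Per the submitters' processing notes, the tools were cutadapt 1.16, STAR 2.7.9a, featureCounts 1.6 and DESeq2 1.36.0 with build GRCm39. The sources used here do not state the treatment of reads that match several genes. Symbols were matched for 91.39% of IDs. Genes were filtered with filterByExpr (minimum count 10, minimum total 15), scaled by TMM (factors 0.886 to 1.22) and tested in edgeR 4.0.16 (R 4.3.3) with a two-sided quasi-likelihood test, 1 fit over the 14 libraries of 3 diets, and Benjamini-Hochberg adjustment over 14627 genes (threshold 0.05). SE is the log2 fold change divided by the square root of F. CPM uses TMM-scaled totals. The fit was tested on simulated data. The 23 alternatives per comparison include DESeq2 1.42.0, other scalings, no filter, a replicate block and each library left out. All 9 genes are described. Genes named from a list are among the 2 with the smallest adjusted p in a comparison, or, where none passed, the most abundant. Other genes are named where the text says so. For some lists no gene is named, and some lists are not reported. The members and lists were chosen with earlier results of these data known. A gene that the rule on likeness names is not reported here.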

Additional observations from a re-analysis of the deposited data

Results flagged for a closer look

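Among 30 sets of library values tested by Dixon's criterion for a library far from the rest of its diet, 2 met it, where chance gives about 1 in 20. Ly6d was at 43.1 CPM in HFD replicate 5, far above the other HFD libraries. Anxa2 was at 19.5 CPM in control replicate 2, far above the other controls. In the control library excluded by the submitters as contaminated, 3 of the 9 genes lay above the highest of the controls used, and Sox9 lay below the lowest. The share of all genes outside the control range in that library is not given here, so this count has no background. There Krt23 was at 0.744 CPM against at most 0.664, Ly6d at 2.42 CPM against at most 1.83, and Cd24a at 9.67 CPM against at most 5.48. Sox9 was at 3.53 CPM against at least 3.81. In this excluded library Krt8 was at 144 CPM and Anxa5 at 50.4 CPM, both within the control range.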

How the results depend on the processing

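Krt8 and Anxa5 were called higher than control on both diets under all 23 alternatives. With each library left out, 2 to 7 of the 9 genes were called higher under HFD and 4 to 6 under the ketogenic diet. Over all genes, 591 to 1472 were called higher under HFD (1016 with all libraries) and 658 to 1295 under the ketogenic diet (1093). Calls in either direction ran from 934 to 2617 under HFD (1749) and from 1056 to 2201 under the ketogenic diet (1766). Between the fat-rich diets they ran from 1 to 315 (9). The Krt8 to Krt18 log2 ratio ran from 0.42 to 0.59 for HFD against control, from 0.19 to 0.36 for ketogenic against control and from -0.27 to -0.19 between the fat-rich diets. Without the pair of libraries that stand apart, chosen after seeing the data, 3239 genes were called under HFD and 636 between the fat-rich diets. Among the latter were 2 of the 9 members, both lower under the ketogenic diet, whose highest library for these 2 was left out. Between those diets, 173 genes were called by DESeq2, 15 with library totals, 26 with no filter, 1 with only the 2 diets fitted and 15 with the replicate block; the cause was not tested. The replicate block left 5 members called under HFD and 3 under the ketogenic diet. Replicate numbers share only a number: same-numbered libraries deviated together (r over 0.1) in 3 of 13 pairs, and 3 of 14 libraries correlated best with their own number. Without the filter, 4 members were called on each diet. Scaling by library totals moved the median log2 fold change of all genes by 0.127 under HFD and 0.177 under the ketogenic diet, and called 6 members on each, Ly6d being added under the ketogenic diet. The share of all genes called higher with the replicate block, without the filter and with library totals is not given here. The member counts in those settings therefore have no background beside them. Few reads limit Afp and Krt23.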
